A study of Drosophila melanogaster with 3 samples.

Results

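The 35 genes described here encode aminoacyl-tRNA synthetases of Drosophila melanogaster. They were found by symbol, as an amino acid's 3-letter code followed by RS or, for the mitochondrial enzymes, RS-m, among 13945 protein-coding genes of the 6 chromosome arms. Symbols without the -m ending gave 20 cytoplasmic members and those with it gave 15 mitochondrial members. The prefixes GluPro, alpha-Phe and beta-Phe were accepted as well. The data map YL-1 by chromatin immunoprecipitation and sequencing (ChIP-seq) in 1 group of 3 biological replicates, each a separate biosample in the labels. Each was whole embryos of both sexes, 0 to 24 h old, of a transgenic line that stably carries GFP at the carboxy terminus of YL-1, and chromatin held by the fusion was pulled down through its GFP. Chromatin was sonicated to fragments of 200 to 800 bp. The embryos mix many cell types and stages, and no second genotype or condition was compared.

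Aminoacyl-tRNA synthetases join each amino acid to its tRNA, the step at which the genetic code is read chemically. They fall into a pair of unrelated structural families, class I and class II. Mitochondria translate their own small genome with separate synthetases, which are encoded in the nucleus and imported, and in humans some genes, such as those for the glycine and lysine enzymes, serve both compartments. A gene without the -m ending may therefore also supply mitochondria. YL-1 belongs to the Domino and Tip60 chromatin remodelling assemblies, which place the histone variant H2Av into nucleosomes near gene starts and acetylate histones there.

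The promoters below are those of 4 members with strong peaks, 3 cytoplasmic and 1 mitochondrial, and of the 6 mitochondrial members without a peak that passed the authors' threshold, so that both sides of that threshold can be read together. PheRS-m and AsnRS-m, which were also strong, and ValRS, which had no such peak, are not shown. Each runs 5′ to 3′ on the gene's strand, from up to 150 bases before the annotated start site (TSS) to its first 20 transcribed bases, and is shorter where another gene begins or ends. Capitals mark matches to the motifs described with the promoter search. The sequences are from RefSeq's copy of Release 6 (dm6).

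The cytoplasmic promoters were those of GlnRS on the minus strand at chr3R:25265702-25265843, beta-PheRS on the minus strand at chr3R:24252660-24252825 and TrpRS on the minus strand at chr3R:9266885-9267018.
GlnRS: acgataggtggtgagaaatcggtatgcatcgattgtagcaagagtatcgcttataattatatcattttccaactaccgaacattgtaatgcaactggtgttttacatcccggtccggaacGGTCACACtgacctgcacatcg
beta-PheRS: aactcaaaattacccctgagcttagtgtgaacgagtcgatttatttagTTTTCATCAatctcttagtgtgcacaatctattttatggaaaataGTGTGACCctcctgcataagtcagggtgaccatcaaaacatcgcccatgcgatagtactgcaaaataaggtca
TrpRS: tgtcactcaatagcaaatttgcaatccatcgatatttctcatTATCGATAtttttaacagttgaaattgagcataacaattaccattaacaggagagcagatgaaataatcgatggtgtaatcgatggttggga

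LeuRS-m, a bound mitochondrial member, lies on the plus strand at chr3L:4825703-4825872.
LeuRS-m: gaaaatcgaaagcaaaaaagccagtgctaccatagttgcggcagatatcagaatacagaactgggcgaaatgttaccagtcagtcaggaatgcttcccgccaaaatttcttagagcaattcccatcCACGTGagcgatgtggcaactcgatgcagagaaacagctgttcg

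The 6 mitochondrial members without a peak were at chr3L:16417158-16417327 (GluRS-m, minus strand), chr3L:16100130-16100299 (IleRS-m, plus), chr3R:14259972-14260141 (MetRS-m, minus), chr3L:2651831-2652000 (ProRS-m, minus), chr3R:15340517-15340686 (SerRS-m, plus) and chr3L:8964750-8964911 (ValRS-m, minus).
GluRS-m: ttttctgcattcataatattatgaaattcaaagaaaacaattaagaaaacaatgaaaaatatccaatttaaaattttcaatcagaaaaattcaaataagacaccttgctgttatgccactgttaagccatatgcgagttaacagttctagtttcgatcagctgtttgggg
IleRS-m: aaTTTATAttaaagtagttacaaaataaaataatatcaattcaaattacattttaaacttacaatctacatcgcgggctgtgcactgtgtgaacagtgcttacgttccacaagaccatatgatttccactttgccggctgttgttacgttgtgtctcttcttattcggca
MetRS-m: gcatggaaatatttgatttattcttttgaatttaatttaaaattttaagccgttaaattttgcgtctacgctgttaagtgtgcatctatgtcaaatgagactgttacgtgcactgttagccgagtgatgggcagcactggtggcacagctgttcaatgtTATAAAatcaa
ProRS-m: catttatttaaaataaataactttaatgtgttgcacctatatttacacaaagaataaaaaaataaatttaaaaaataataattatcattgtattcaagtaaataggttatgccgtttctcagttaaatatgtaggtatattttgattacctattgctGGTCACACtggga
SerRS-m: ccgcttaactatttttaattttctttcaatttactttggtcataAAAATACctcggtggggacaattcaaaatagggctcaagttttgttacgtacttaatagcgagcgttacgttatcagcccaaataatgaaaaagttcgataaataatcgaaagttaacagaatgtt
ValRS-m: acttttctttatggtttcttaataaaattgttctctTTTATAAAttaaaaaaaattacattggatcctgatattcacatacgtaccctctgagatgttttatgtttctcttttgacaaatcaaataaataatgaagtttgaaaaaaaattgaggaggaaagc

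YL-1 lay at the start of most synthetase genes, and at a larger share of the cytoplasmic than of the mitochondrial ones. A gene was called bound where the summit of a peak that passed the authors' irreproducible discovery rate (IDR) threshold lay within 250 bp of any annotated TSS. By this rule 28 of the 35 members (80%) were bound, where 33.4% of all protein-coding genes were. Of the cytoplasmic members 19 of 20 (95%) were bound, with an exact binomial 95% interval of 75.1% to 99.9%, and of the mitochondrial members 9 of 15 (60%), with an interval of 32.3% to 83.7%. These intervals cover the counting of genes only. The 7 members that were not bound were ValRS among the cytoplasmic enzymes and GluRS-m, IleRS-m, MetRS-m, ProRS-m, SerRS-m and ValRS-m among the mitochondrial ones.

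The same counts were taken in each replicate, using its 5986 strongest regions (top regions), as many as the IDR list holds. A top region lay at 27 members in replicate 1, where 32.8% of all genes had one, at 24 in replicate 2 (31.3% of all genes) and at 26 in replicate 3 (32.3% of all genes). The cytoplasmic counts were 19, 16 and 17 of 20, and the mitochondrial counts were 8, 8 and 9 of 15. The 2 classes did not overlap in their shares, and both stayed above the share of all genes in each replicate. The mean share over replicates was 86.7% ± 7.64 (SD, n = 3) for cytoplasmic members, 55.5% ± 3.87 for mitochondrial members and 32.1% ± 0.750 for all genes. Cytoplasmic members exceeded mitochondrial members by 41.7, 26.7 and 25 percentage points in replicates 1, 2 and 3, a mean of 31.1 ± 9.19 (SD, n = 3). An exact two-sided sign-flip permutation test over the replicates gave p = 0.25, the smallest that 3 replicates allow. A top region was present in all 3 replicates at 21 members, 14 of them cytoplasmic and 7 mitochondrial, against 23.9% of all genes.

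**Figure D1:**
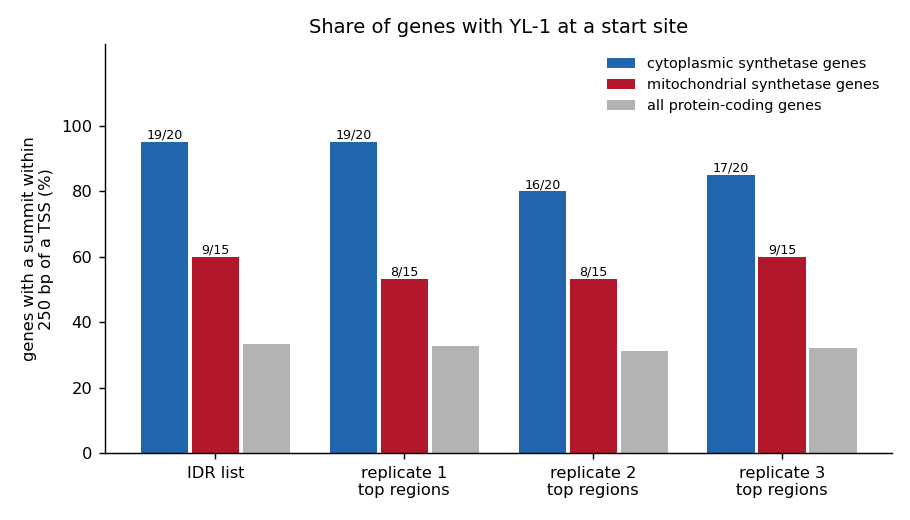
Share of genes (%) with a summit within 250 bp of a TSS in the IDR list and among the top regions of each replicate, for cytoplasmic members (blue), mitochondrial members (red) and all protein-coding genes (grey); numbers above the bars are bound members of all members. Cytoplasmic bars stand at 80% to 95%, mitochondrial bars at 53.3% to 60% and those of all genes at 31.3% to 33.4%.

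Among bound members the 2 classes carried similar signal, a comparison that leaves out 6 mitochondrial members and 1 cytoplasmic member. The signal value of a peak is the authors' own and has no stated unit, so values were compared within a list or after division by a median of that list. The median signal was 256 for the 19 bound cytoplasmic members and 263 for the 9 bound mitochondrial members, a ratio of 0.973, and it was 252 over all 4655 bound genes. In replicates 1, 2 and 3 the cytoplasmic median was 1.11, 1.03 and 1.08 times the mitochondrial one, a mean ratio of 1.08 ± 0.0406 (SD, n = 3; exact two-sided sign-flip permutation test on the log2 ratio, p = 0.25, the smallest possible). The ratio of the IDR list thus lay on the other side of 1 from those of the replicates. Over the whole pooled list, which holds a region for 20 cytoplasmic and 14 mitochondrial members, the ratio was 1.316. Of the bound members, 18 of 28 were above the median signal of the IDR list (219), as were 62.6% of all bound genes.

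The signal at single members spread widely, and GlnRS, the glutamine enzyme, was the highest. Its gene lies at chr3R:25263267-25265721, and its peak had a signal of 645 and rank 107 of the 5986 IDR peaks. To set replicates side by side, signal was divided by the median of that replicate's top regions (relative signal), which gave 2.98, 2.32 and 2.99 for GlnRS in replicates 1, 2 and 3. beta-PheRS, a subunit of the cytoplasmic phenylalanine enzyme, had a signal of 595 at rank 145 and relative signals of 1.97, 2.39 and 3.07. TrpRS, the tryptophan enzyme, had a signal of 430.0 at rank 471 and relative signals of 2.33, 2.04 and 1.56. In each replicate these 3 genes, and also SerRS, lay above 1.5 times the median top region. beta-PheRS exceeded GlnRS in replicates 2 and 3. In replicate 3 AlaRS, with 1.88, and SerRS, with 1.85, exceeded TrpRS. The mitochondrial PheRS-m exceeded TrpRS in replicates 2 and 3, with 2.27 and 1.75.

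The strongest mitochondrial member was PheRS-m, a single-chain phenylalanine enzyme, with a signal of 393 at rank 662. Its relative signals of 1.22, 2.27 and 1.75 were lowest in replicate 1. LeuRS-m, the leucine enzyme, had a signal of 370 at rank 800 and relative signals of 1.50, 2.03 and 1.51. AsnRS-m, the asparagine enzyme, had a signal of 294 at rank 1523 and relative signals of 0.971, 1.23 and 1.43. PheRS-m and LeuRS-m overlapped in their replicate values, and both were above AsnRS-m in each replicate.

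At the low end of the bound cytoplasmic members stood HisRS and CysRS. HisRS, the histidine enzyme, had a signal of 161 at rank 4859, and its relative signals of 1.08, 0.508 and 0.614 put it among the top regions of replicate 1 alone. CysRS, the cysteine enzyme, had a signal of 183 at rank 4000 and relative signals of 0.998, 0.884 and 0.822, within the top regions of all 3 replicates. HisRS also held the one other IDR peak found inside a member's body more than 250 bp from its own start sites, 2168 bp from its TSS, with a signal of 149.

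The weakest bound mitochondrial members were CysRS-m and ArgRS-m. CysRS-m, the cysteine enzyme, had a signal of 184 and relative signals of 1.19, 0.331 and 0.902. Its replicate 2 region was at rank 15236, far outside the top regions. ArgRS-m, the arginine enzyme, had a signal of 193 and relative signals of 0.997, 0.668 and 0.815.

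The other 14 bound cytoplasmic members, SerRS, AlaRS, LeuRS, GluProRS, AsnRS, LysRS, ThrRS, alpha-PheRS, IleRS, TyrRS, GlyRS, MetRS, AspRS and ArgRS in falling order, ranged in signal from 419 to 183. The other 4 bound mitochondrial members, AspRS-m, AlaRS-m, TrpRS-m and TyrRS-m, ranged from 285 to 193. Over the 28 bound members, the highest of the replicates' relative signals was a median of 1.47 times the lowest. Among members with a region at the same TSS in each replicate, LeuRS and ThrRS had the lowest ratios, 1.07 and 1.10. Each held 2 IDR peaks in its window, so these ratios may compare different peaks. The ThrRS summit was 121 and 105 bp downstream of the TSS in replicates 1 and 2 and 98 bp upstream in replicate 3. That of LeuRS was 147, 26 and 12 bp upstream in replicates 1, 2 and 3. TyrRS had no region in the list of replicate 2, so its ratio of 1.11 covers 2 replicates. CysRS-m was the most uneven, with a ratio of 3.60 through its low replicate 2. The ratio of 3.49 for GluProRS does not compare 1 promoter: its region in replicate 2 lay at another annotated TSS, 2865 bp from that of the IDR peak, where replicate 2 listed no region.

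**Figure D2:**
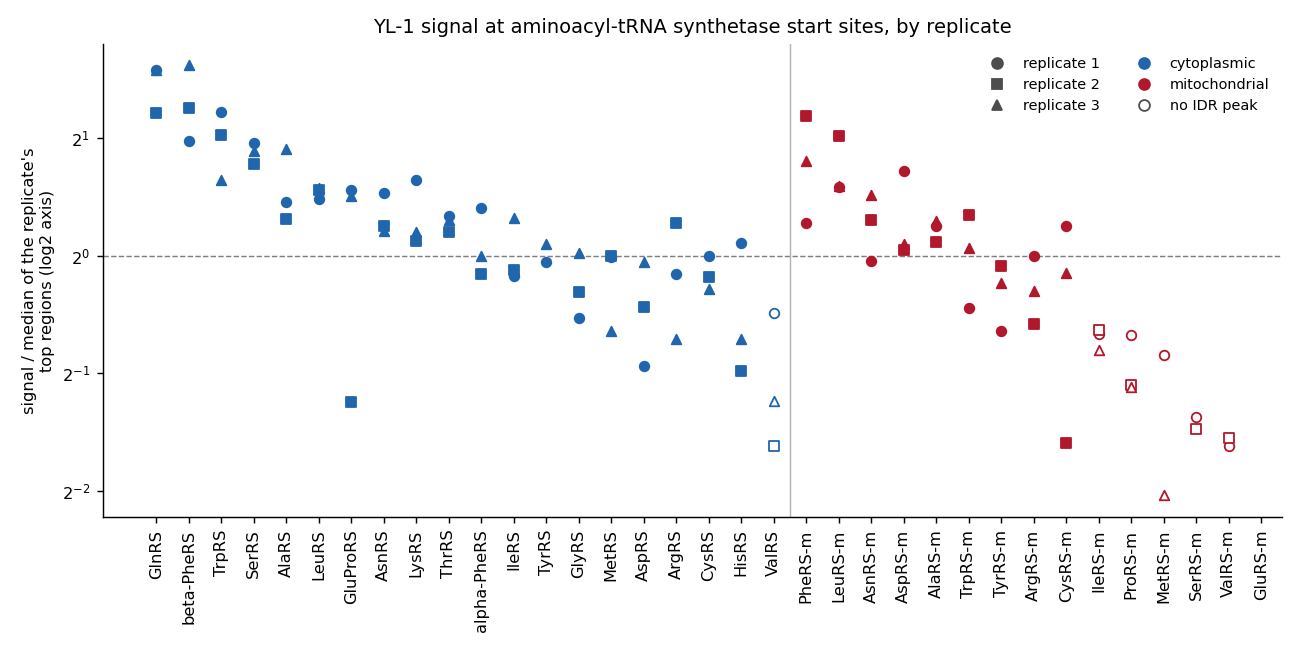
Signal of the strongest region within 250 bp of a TSS, divided by the median of the replicate's top regions (log2 axis), for the 35 members by class and falling pooled signal; symbols are replicates, filled where the member has an IDR peak. GlnRS, beta-PheRS, TrpRS and SerRS lie above 1.5 in all 3 replicates, the replicate 2 point of GluProRS is at another TSS, the 6 mitochondrial members without a peak lie at or below 0.646, and GluRS-m has no region.

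The 7 unbound members were mostly not empty. In the whole pooled list of 30000 regions, which reaches into background, 34 of 35 members had a region within 250 bp of a TSS, as did 52.2% of all genes. IleRS-m, the isoleucine enzyme, was just short of the threshold, with a pooled signal of 135 against a lowest IDR signal of 137, while HisRS, the weakest bound member, had 161. Its relative signals of 0.632, 0.646 and 0.575 lay close together, at ranks 6205, 6071 and 6703. ProRS-m, the proline enzyme, had a pooled signal of 121 and relative signals of 0.627, 0.466 and 0.462.

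ValRS, the valine enzyme, had a pooled signal of 83.2. It was in the top regions of replicate 1, with a relative signal of 0.712, but not of replicates 2 and 3, with 0.326 and 0.424. MetRS-m, the methionine enzyme, had a pooled signal of 78.3, relative signals of 0.559 and 0.244 in replicates 1 and 3, and no region in replicate 2. SerRS-m, the serine enzyme, had a pooled signal of 61.3, relative signals of 0.386 and 0.360 in replicates 1 and 2, and no region in replicate 3. ValRS-m had a pooled signal of 46.3, relative signals of 0.325 and 0.342 in replicates 1 and 2, and no region in replicate 3. All 4 were thus weak, and both valine enzymes lacked a peak.

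GluRS-m, the mitochondrial glutamate enzyme, was the one member with no region at its TSS in any list. The nearest pooled summit was 783 bp away and the nearest IDR summit 2135 bp away. Its neighbour in tandem is another member, TyrRS, which ends 172 bp upstream of it and whose own TSS was bound with a signal of 215. The lists hold no read counts, so a zero here means that no region was listed.

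The classes were next compared within amino acids, where both enzymes charge the same amino acid and differ in compartment. Of 14 such pairs the cytoplasmic gene had the higher pooled signal in 8 and the mitochondrial gene in 6. PheRS-m enters 2 pairs, since the cytoplasmic enzyme has alpha and beta subunits. The cytoplasmic gene was higher in all 3 replicates for 6 pairs, those of alanine, isoleucine, methionine, beta-PheRS, serine and tryptophan, and lower in all 3 for AspRS and LeuRS. The other 6 pairs changed order between replicates, with a gene that had no listed region taken as the lower. The widest gap was between SerRS at 419 and SerRS-m at 61.3, and the closest pair was CysRS at 183 and CysRS-m at 184. GluProRS, a fusion that charges both glutamate and proline, had a pooled signal of 326, against 121 for ProRS-m and no region for GluRS-m.

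**Figure D3:**
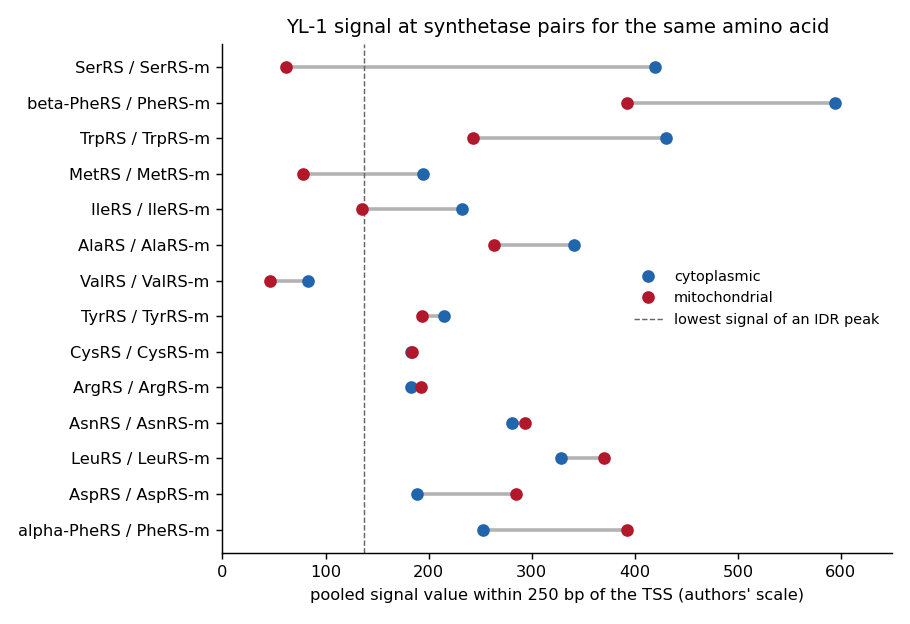
Pooled signal (authors' scale) within 250 bp of the TSS for each cytoplasmic gene (blue) and the mitochondrial gene for the same amino acid (red), ordered by their difference; the dashed line is the lowest signal of an IDR peak, 137. The cytoplasmic point lies to the right in 8 pairs and the mitochondrial one in 6, and SerRS and SerRS-m are farthest apart.

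Grouped by structure, both families were bound. Among cytoplasmic enzymes, 8 of 9 of class I, 10 of 10 of class II and GluProRS, which joins a domain of each, had a peak. Among mitochondrial enzymes these counts were 5 of 9 for class I and 4 of 6 for class II. In mammals 8 of the cytoplasmic synthetases are assembled in a multisynthetase complex, and the fly genes for these (ArgRS, AspRS, GlnRS, GluProRS, IleRS, LeuRS, LysRS and MetRS) were bound, with a median signal of 253. The other 12 cytoplasmic members had 11 bound with a median of 256.

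Summits lay close to the start site and mostly before it. The median distance from the TSS was 52 bp over the 28 bound members and 68 bp over all bound genes. In replicates 1, 2 and 3 the median over members was 45.5, 52 and 63.5 bp. The summit was upstream of the TSS at 22 of the 28 (78.6%), compared with 60.5% of all bound genes, and within 100 bp at 22. Where a window held several IDR peaks, the strongest was measured, and 7 members (AlaRS, AsnRS, GlyRS, IleRS, LeuRS, ThrRS and PheRS-m) had 2. The farthest summit measured was that of GlyRS, 211 bp upstream, while its weaker peak had a summit 8 bp from the TSS. For 18 of the 28 peaks the width was 500 bp and the deposited summit fell at the centre of its region (tolerance 1 bp). How finely such summits mark a position cannot be read from the lists alone. The 10 narrower peaks had a median signal of 382 and the 18 wide ones 224, as narrower peaks were also stronger over all bound genes (369 and 212). Between replicates, the summits of the 20 members with a single TSS and a region in each replicate ranged over a median of 55.5 bp, and over more than 100 bp for 7 of them. These 7 included AsnRS, GlyRS, IleRS and LeuRS, which held 2 IDR peaks, so their ranges may span different peaks.

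**Figure D4:**
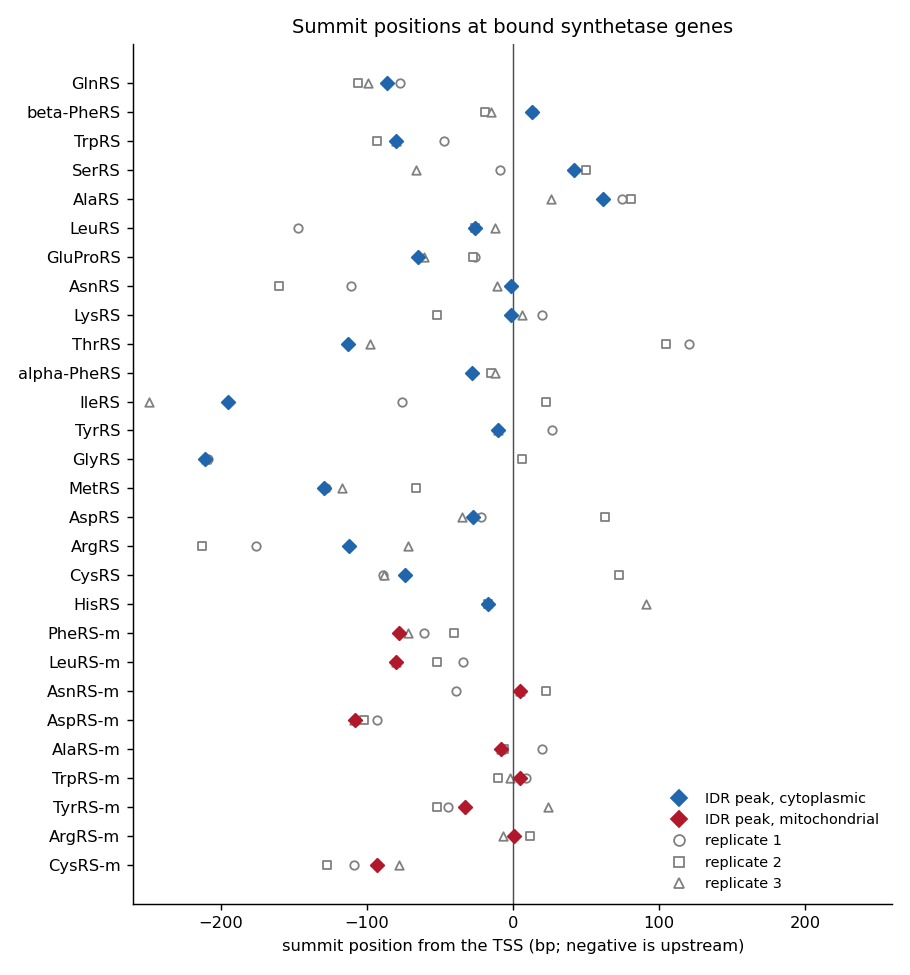
Position of the summit relative to the nearest TSS (bp, negative is upstream) for the 28 bound members, from the IDR list (filled diamonds, blue for cytoplasmic and red for mitochondrial) and from each replicate (open symbols). Symbols of GluProRS in replicate 2, SerRS in replicates 1 and 3 and LysRS in replicate 1 are measured from another annotated TSS than the diamond. Diamonds lie between 211 bp upstream (GlyRS) and 62 bp downstream (AlaRS), with 22 of 28 upstream.

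Many members, though not all, lie head to head with another gene, a feature that the symbol rule did not use. Neighbours of a bound member were sought from the TSS with its IDR peak, and of an unbound member from the most upstream TSS. For AspRS and AspRS-m the TSS used was 3280 and 281 bp inside the gene, so their arrangement depends on the peak. A divergent TSS of another protein-coding gene within 500 bp upstream was found for 22 of the 35 members (62.9%), for 27.4% of all protein-coding genes and for 53.9% of bound ones. Among the 28 bound members it was found for 21 (75%). Of these 22, 21 had an IDR peak, and ProRS-m did not, where 65.8% of all genes in that arrangement had one. All 15 cytoplasmic members with a divergent neighbour and 6 of 7 such mitochondrial members were bound. A gene on the same strand ending within 500 bp upstream, with no divergent TSS, was found for 10 members, of which 6 were bound, where 34.4% of all genes so arranged were. In this tandem arrangement 3 of 3 cytoplasmic members (AlaRS, CysRS and beta-PheRS) and 3 of 7 mitochondrial members (AspRS-m, PheRS-m and TrpRS-m) were bound. Neither arrangement held for HisRS, which was bound, and for SerRS-m and ValRS, which were not, where 16.4% of all such genes were. HisRS and ValRS had a divergent TSS just beyond the 500 bp limit, at 561 and 513 bp, so their place rests on that limit. Divergent neighbours were more frequent among cytoplasmic (15 of 20) than mitochondrial members (7 of 15), and the part of arrangement in the difference between the classes was not tested.

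**Figure D5:**
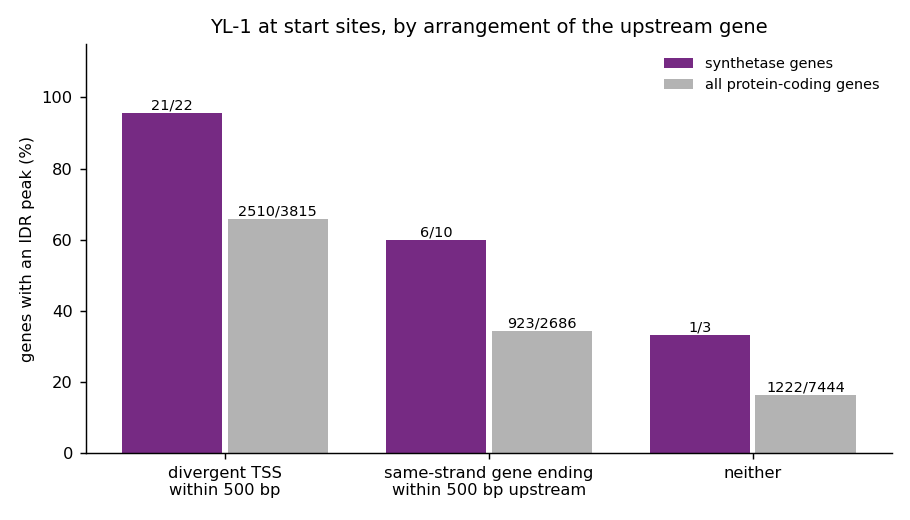
Share of genes (%) with an IDR peak for synthetase genes (purple) and all protein-coding genes (grey), split by a divergent TSS within 500 bp, a same-strand gene ending within 500 bp upstream, or neither; numbers above the bars are bound genes of all genes in that arrangement. The shares fall from 95.5% to 60% to 33.3% for members and from 65.8% to 34.4% to 16.4% for all genes.

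A peak between 2 genes cannot be given to one of them by position alone. For 17 of the 28 bound members, 12 cytoplasmic and 5 mitochondrial, the summit also lay within 250 bp of a TSS of another protein-coding gene. The summit was nearer to the member in 9 of these, nearer to the neighbour in 6 and equally far from both in 2. The leading GlnRS summit was 37 bp from the TSS of RIOK2, whose product is a kinase of ribosome assembly, and 86 bp from that of GlnRS. The TrpRS summit was 35 bp from the TSS of Vps16A, a vesicle tethering factor, and 80 bp from that of TrpRS. The LeuRS-m summit was 80 bp from its own TSS and 86 bp from that of Dhc64C, the cytoplasmic dynein heavy chain. HisRS shares its TSS with Bx, a LIM-only protein gene, and the AspRS summit was 27 bp from both AspRS and Nmda1. The AspRS peak was at an internal start site and not at the most upstream one. Shared peaks had a median signal of 263 and the 11 unshared ones 256, and beta-PheRS and PheRS-m, strong in their class, were among the unshared.

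The promoter sequences were searched on both strands from 250 bases before to 50 after the TSS for 8 motifs. For AspRS that TSS was the internal one that held its peak. The DNA replication-related element TATCGATA, bound by Dref, was in 6 members, in 9.32% of all promoters and in 18.8% of the promoters of bound genes. It was in AlaRS, ArgRS, AspRS, IleRS, TrpRS and PheRS-m, which were all bound, and its middle was a median of 79.5 bp from the summit. In TrpRS the element printed above in capitals ended 65 bases before the TSS and its middle was 11 bp from the summit. The 6 bound members with the element had a median signal of 287 and the 22 without it 259.5, within the range from 161 to 645 of the latter.

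Ohler motif 1, GGTCACAC, a core element bound by M1BP, was in 4 members, GlnRS, beta-PheRS, AsnRS-m and ProRS-m, and in 7.93% of all promoters. Among bound genes it was in 3 of 28 members and in 18.3% of promoters. In GlnRS it spans the TSS, and it is printed in capitals also in beta-PheRS and in the unbound ProRS-m. The E-box CACGTG, bound by Myc and Max, was in GlnRS and LeuRS-m and in 4.24% of all promoters and 5.56% of bound ones; that of GlnRS lies upstream of the printed stretch. The C/EBP-ATF element TGATGNAAN, read by ATF4 and, in flies, by its homologue crc, was in CysRS and beta-PheRS and in 4.04% of all promoters and 4.02% of bound ones. TATAAA was in 18 members, 13 of them bound, and in 45.5% of all promoters and 44.7% of bound ones.

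Ohler motif 6, GTATTTT, was in 5 members, 3 of them bound, and in 16.3% of all promoters and 23.9% of bound ones. Ohler motif 7, CATCNCTA, was in 2 members, both bound, and in 6.55% of all promoters and 13% of bound ones. The GAGA element GAGAGAG was in 1 bound member and in 6.12% of all promoters and 3.82% of bound ones. No site of one motif overlapped a site of another in these promoters. A match describes letters and does not show that a factor was there. The median GC content of the 300 bases was 37.0% in bound members and 29.0% in the 7 unbound ones. Over all promoters it was 38.0%, and over the promoters of bound genes it was lower, 36.7%. Cytoplasmic members had 35.5% and mitochondrial members 35.3%. The part of GC content in binding was not tested.

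Genes that work beside the synthetases were read from lists by name, of which 45 of 50 symbols matched the annotation. The 3 scaffold proteins of the multisynthetase complex, AIMP1, AIMP2 and AIMP3, were bound with signals of 587, 259 and 293, so that AIMP1 stood near beta-PheRS. Among the partners that charge mitochondrial tRNAs by other routes, GatA, GatB and GatC, which make glutaminyl-tRNA by amidation in place of a mitochondrial GlnRS, had signals of 229, 187 and 247. Slimp, a mitochondrial relative of SerRS, had no IDR peak, as SerRS-m had none. Of the elongation factors that deliver charged tRNAs or move the cytoplasmic ribosome, 5 of 7 were bound, with eEF1gamma at 728 and eEF1alpha1 at 262 and with eEF1alpha2 and eEF1delta without a peak.

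Of 9 mitochondrial translation factors 7 were bound, with a median signal of 196 and mRRF1 and mIF3 without a peak. Of 15 genes that process or modify tRNAs 12 were bound, with a median of 301, and Tgt, Trm7-32 and Trm7-34 were not. The replicates gave another picture for some of these: Trm7-34 had a top region in 3 replicates and Trm7-32 in 2, while RNaseZ and Dtd, bound by the IDR list, had one in 1. All 7 genes listed under the amino acid response, Gcn2, PEK, crc, Thor, eIF2alpha, eIF2beta and eIF2gamma, were bound. Among them the kinase Gcn2, which senses uncharged tRNA, had a signal of 166 and crc one of 408. The background of all genes was 33.4% as above. Cytoplasmic ribosomal protein genes were bound in 83 of 92 cases, with a median signal of 486, and mitochondrial ribosomal protein genes in 57 of 73, with a median of 250. Between compartments the medians of bound ribosomal protein genes were thus farther apart than those of bound synthetases, 256 and 263, and this contrast was not tested.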

How the data were processed

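The authors deposited narrowPeak region lists in dm6, per the labels and the deposited inventories: peaks and background regions of each replicate and of all 3 libraries combined (the pooled list), each called against a control library set (30000 regions each), and an IDR-thresholded list of 5986 peaks. The aligner is not given in the sources used here, nor is the peak caller. Each region carries a signal and the −log10 of a q-value, both computed by the authors and used as deposited; the scale of the signal differs between lists, so values were compared within a list or after division by the median of its top regions. No list gives read counts, so depth is unknown. The dm3 lists and the control libraries were not analysed here.

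Start sites came from Ensembl 115 and sequence from RefSeq, both Release 6; positions are 1-based. Where several summits fell in a window the strongest was used, measured from the nearest TSS. The text gives replicate values for the 3 strongest and 2 weakest bound members of each class and for each unbound member. Members and lists were chosen with earlier results of these data known, so no list was tested for enrichment. Steps were tested on simulated data. Statistics used scipy 1.17.1 with pandas 2.3.3 and numpy 2.4.6 under Python 3.11.15, and figures matplotlib 3.10.9.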

Additional observations from a re-analysis of the deposited data

How the results depend on the processing

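The counts of bound members kept within 1.5 times under windows of 100, 500 and 1000 bp, any overlap of the peak, both rules for peaks shared by all 3 replicates, the nearest TSS, the most upstream TSS and each replicate left out (23 to 24 members). Peaks above the median signal left 18 members, 12 of them cytoplasmic, and the whole pooled list gave 14 mitochondrial members. The ratio of median signals crossed 1 with the setting: 1.077 at 100 bp, 1.316 in the whole pooled list, 0.8931 when a peak counted for the nearest TSS alone, and 0.9931 to 1.162 with a replicate left out. With a replicate left out, the top regions of 1 remaining replicate that overlapped a top region of the other were used, with the signals of the former. These signals were from replicate 2 when replicate 1 was left out, and otherwise from replicate 1. The median distance was 27 bp at 100 bp and with the nearest TSS, and 62 bp for shared peaks under both rules and for the most upstream TSS. The window, the stricter or looser list and the single assignment change which members enter by construction; for the other settings the cause was not tested. Giving each peak to its nearest TSS removed CysRS-m, GlnRS, MetRS, TrpRS and TyrRS-m, 100 bp removed ArgRS, AspRS-m and MetRS, and the most upstream TSS removed AspRS. With 100 bases upstream in the motif search, TATAAA was found in 8 members and Ohler motif 6 in 2. The mean number of members with a top region in a replicate, 25.67 with 5986 regions, was 17.33 with 3000, 30 with 10000 and 26 with ranking by q-value. Measuring replicates at the TSS of the IDR peak, chosen after seeing the data, moved the mean ratio from 1.076 to 1.085. No paired analysis was possible because there is 1 group of samples and no second group to pair it with; the differences between gene classes were already taken within each replicate. Unknown depth limits what an unlisted region means.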
